A study of Mus musculus with 47 samples.

Results

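The genes described here are those of the Notch receptors Notch1, Notch2 and Notch3 and of the Notch-like membrane protein Dlk1, followed through 47 RNA-seq libraries of mouse T-cell precursors. They are 4 of the 17754 genes in the deposited table and were taken by symbol (Ensembl identifiers ENSMUSG00000026923, ENSMUSG00000027878, ENSMUSG00000038146 and ENSMUSG00000040856). They were selected on the knockout differences of Dlk1 and Notch3, already known from these libraries. Values of all 4 genes in the knockout comparison are therefore a description, with no test. The study asked how the transcription factor gene Bcl11b shapes the transcriptome as precursors commit to the T lineage. Its 17 groups hold 19 libraries labelled knockout and 4 with a gamma-secretase inhibitor (GSI). Expression is in FPKM (fragments per kilobase of transcript, relative to all mapped fragments), a measure per length that allows levels of different genes to be compared.

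The fetal liver comparison held 14 knockout and 11 control libraries. Precursors came from embryonic day 13.5 livers, of mice with floxed Bcl11b or of C57BL/6 (B6) controls, some with a ROSA26R reporter of Cre excision. Both received a Cre retrovirus and were grown with Flt3L and IL-7 at 5 ng/ml on OP9 cells, a mouse bone marrow stromal line, carrying the Notch ligand Delta-like 1 (DL1) or Delta-like 4 (DL4). Knockout libraries numbered 8 on DL1 and 6 on DL4, and control libraries 8 and 3. IL-7 was lowered during culture in 4 knockout and 3 control libraries. By the protocol, knockout cells were sorted for the earlier DN2a phenotype and controls for the later DN2b phenotype. Titles vary more, naming DN2 in both genotypes for some DL1 cultures and DN2b for DL1 knockout replicate 7. Where the gates differ, genotype and sort gate cannot be told apart. DN2a, DN2b and DN3 are successive double-negative stages, the last being committed to the T lineage. Untreated B6 cells on DL1, which carried no Cre, gave 4 libraries of DN2a and 2 of DN2b, and the same cells with 1 µM GSI for the last 12 h gave 2 of each stage. DN2b replicate 1, with and without GSI, is titled DN3. Thymus gave 1 DN2 library deleted in vivo by LckCre, which acts in early T cells, and 3 fresh DN3 libraries with intact Bcl11b. The fresh libraries came from an LckCre mouse, from a floxed mouse with an undeleted gene and a tamoxifen-inducible Cre (CreERT2), and from a CreERT2 mouse. DN3 cells cultured on DL4 after 100 nM 4-OH tamoxifen gave 2 control libraries (days 3 and 4) and 1 knockout (day 4). Bone marrow precursors on DL4 gave 1 CreERT2 knockout and 1 control. Day 12 cultures given a vector 36 h before harvest gave 1 control and 1 knockout with empty vector and 1 knockout with a Bcl11b vector.

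Notch receptors span the cell membrane and are cut when a Delta-like or Jagged ligand on a neighbouring cell pulls on them. An ADAM protease and then gamma-secretase release the intracellular part, which enters the nucleus, joins the DNA-binding protein RBPJ and Mastermind, and turns on target genes. Notch1 is the receptor that drives precursors into the T lineage, Notch3 is a known Notch target of thymocytes, and Notch2 is best known for its role in B cells and dendritic cells. Dlk1 (delta-like 1 homologue, also Pref-1) resembles a Notch ligand without the domain that engages the receptor. It is expressed from the paternal allele in an imprinted cluster with the maternally expressed RNA gene Meg3, and is known from fetal liver and preadipocytes.

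The promoters of Notch1, Notch3 and Dlk1 are shown because these genes varied most among the members. Each runs from 250 bases before to 50 bases after the annotated start, in the direction of transcription, from RefSeq on build GRCm38.p6, and all 4 genes were matched by symbol. The Notch1 window is chr2:26503773-26504072 on the minus strand, that of Notch3 is chr17:32166841-32167140 on the minus strand, and that of Dlk1 is chr12:109452573-109452872 on the plus strand. Capitals mark GC boxes (GGGCGG, either strand) in the receptor promoters and a Runx core (TGTGGT, either strand) in that of Dlk1.
Notch1: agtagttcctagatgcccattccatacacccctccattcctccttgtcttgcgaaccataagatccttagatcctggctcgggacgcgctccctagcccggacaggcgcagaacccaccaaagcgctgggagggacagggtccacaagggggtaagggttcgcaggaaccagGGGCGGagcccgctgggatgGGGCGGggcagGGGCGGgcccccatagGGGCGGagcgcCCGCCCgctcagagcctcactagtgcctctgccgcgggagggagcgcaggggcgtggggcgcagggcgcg
Notch3: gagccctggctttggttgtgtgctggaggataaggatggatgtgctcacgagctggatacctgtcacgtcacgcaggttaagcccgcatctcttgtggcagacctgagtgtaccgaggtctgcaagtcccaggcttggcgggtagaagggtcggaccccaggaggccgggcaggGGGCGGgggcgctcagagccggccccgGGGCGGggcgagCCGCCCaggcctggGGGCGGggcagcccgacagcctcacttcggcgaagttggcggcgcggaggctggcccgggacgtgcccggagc
Dlk1: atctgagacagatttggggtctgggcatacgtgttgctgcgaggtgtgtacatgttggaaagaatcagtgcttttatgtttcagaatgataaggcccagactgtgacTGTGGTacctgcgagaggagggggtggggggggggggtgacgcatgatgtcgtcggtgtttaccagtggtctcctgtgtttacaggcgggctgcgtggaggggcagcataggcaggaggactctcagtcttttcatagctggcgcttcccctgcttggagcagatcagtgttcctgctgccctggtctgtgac

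The receptor promoters held many GC boxes, the binding motif of Sp1-family factors, and the Dlk1 window held none. Counts were 5 in Notch1, 7 in Notch2 (chr3:98013288-98013587, plus strand) and 4 in Notch3. Of 32544 promoters of the same length, 35.9% held at least 1 GC box and 5.52% held 4 or more. CpG dinucleotides numbered 23, 41 and 25 in Notch1, Notch2 and Notch3 and 9 in Dlk1, where the median of all promoters was 7. GC content was 68.3%, 73.0% and 70.0% in the receptors and 55.7% in Dlk1, with a median of 53.0%. The RBPJ core (TGGGAA, either strand), present in 25.4% of promoters, was in none of the 4 windows, and neither was the TATA motif TATAAA (13.6% of promoters). The Runx core, found in 16.7% of promoters, occurred once in the window of Dlk1. A match or its absence in these windows is a description of the letters and not of binding.

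The table's lowest value, 0.1 FPKM, acts as a floor and is read here as not detected. In each library 0.47% to 6.67% of genes had that value. Bcl11b had a median of 25.1 FPKM (8.77 to 37.9) in the 14 fetal liver knockouts and 54.5 FPKM (16.9 to 84.4) in the 11 controls, so that the groups overlapped. Bcl11b was 45.04 FPKM in the bone marrow library labelled knockout and 44.9 FPKM in its control. Early T-cell markers (8 of 8 in the table, among them Cd3e, Tcf7 and Il2ra) summed to between 898 and 1380 FPKM in DN2a, 2240 to 2870 FPKM in DN2b and 3550 to 4320 FPKM in fresh DN3 libraries. Titles carry dates of 3 years, called the earliest, middle and latest title year here, and the labels do not say whether these mark sequencing batches.

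Notch1 was the most abundant receptor in every library. Its mean of 118 FPKM over all libraries lay at the percentile 95.6 of all genes, and it ranged from 28.6 to 344 FPKM. By group, DN2b (281 ± 41.9 FPKM, SD, n = 2) and fresh thymic DN3 (281 ± 61.3 FPKM, SD, n = 3) stood highest. DN2b with GSI followed at 188.5 ± 58.9 FPKM (SD, n = 2), overlapping with fresh DN3 in its range but not with the single LckCre thymic DN2 library next to it, at 122.8 FPKM. Fetal liver controls averaged 120.3 ± 68.3 FPKM on DL1 (SD, n = 8) and 120.4 ± 71.0 FPKM on DL4 (SD, n = 3), and the knockouts 78.5 ± 38.5 FPKM (SD, n = 8) and 90.7 ± 32.5 FPKM (SD, n = 6). DN2a stood lower, at 73.5 ± 18.25 FPKM (SD, n = 4), but its range overlapped with those of all 4 fetal liver groups. The lowest group value was 47.9 FPKM, in the single knockout library with empty vector.

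Notch3 averaged 28.9 FPKM (percentile 80.5) and ranged from 7.24 to 106 FPKM, a 14.6-fold span against 12.0-fold for Notch1. Fresh thymic DN3 stood highest at 92.5 ± 15.3 FPKM (SD, n = 3) and overlapped with DN2b at 61.6 ± 30.1 FPKM (SD, n = 2), which overlapped in turn with DN2b under GSI at 37.7 ± 21.2 FPKM (SD, n = 2). Fetal liver controls averaged 36.0 ± 19.9 FPKM on DL4 (SD, n = 3) and 31.5 ± 15.1 FPKM on DL1 (SD, n = 8). At the low end were DN2a (16.2 ± 4.16 FPKM, SD, n = 4), the DL1 knockouts (13.5 ± 4.13 FPKM, SD, n = 8) and the single cultured DN3 knockout at 12.6 FPKM, which lay inside the range of those knockouts. Neighbours in the order thus overlapped from the top group to the fetal liver controls and again among the lowest.

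Notch2 was the least abundant and least variable receptor, with a mean of 6.90 FPKM (percentile 53.4) and a range of 2.45 to 11.4 FPKM, a 4.64-fold span. The highest group mean was that of DN2a, 9.01 ± 0.98 FPKM (SD, n = 4), and the lowest value of a group that of the Bcl11b vector library, 5.22 FPKM. Fresh DN3 averaged 8.24 ± 1.22 FPKM (SD, n = 3) and DN2b 7.09 ± 1.78 FPKM (SD, n = 2). DN2a and fresh DN3 overlapped, and so did DN2b with the DL4 knockouts next to it in the order.

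**Figure D1:**
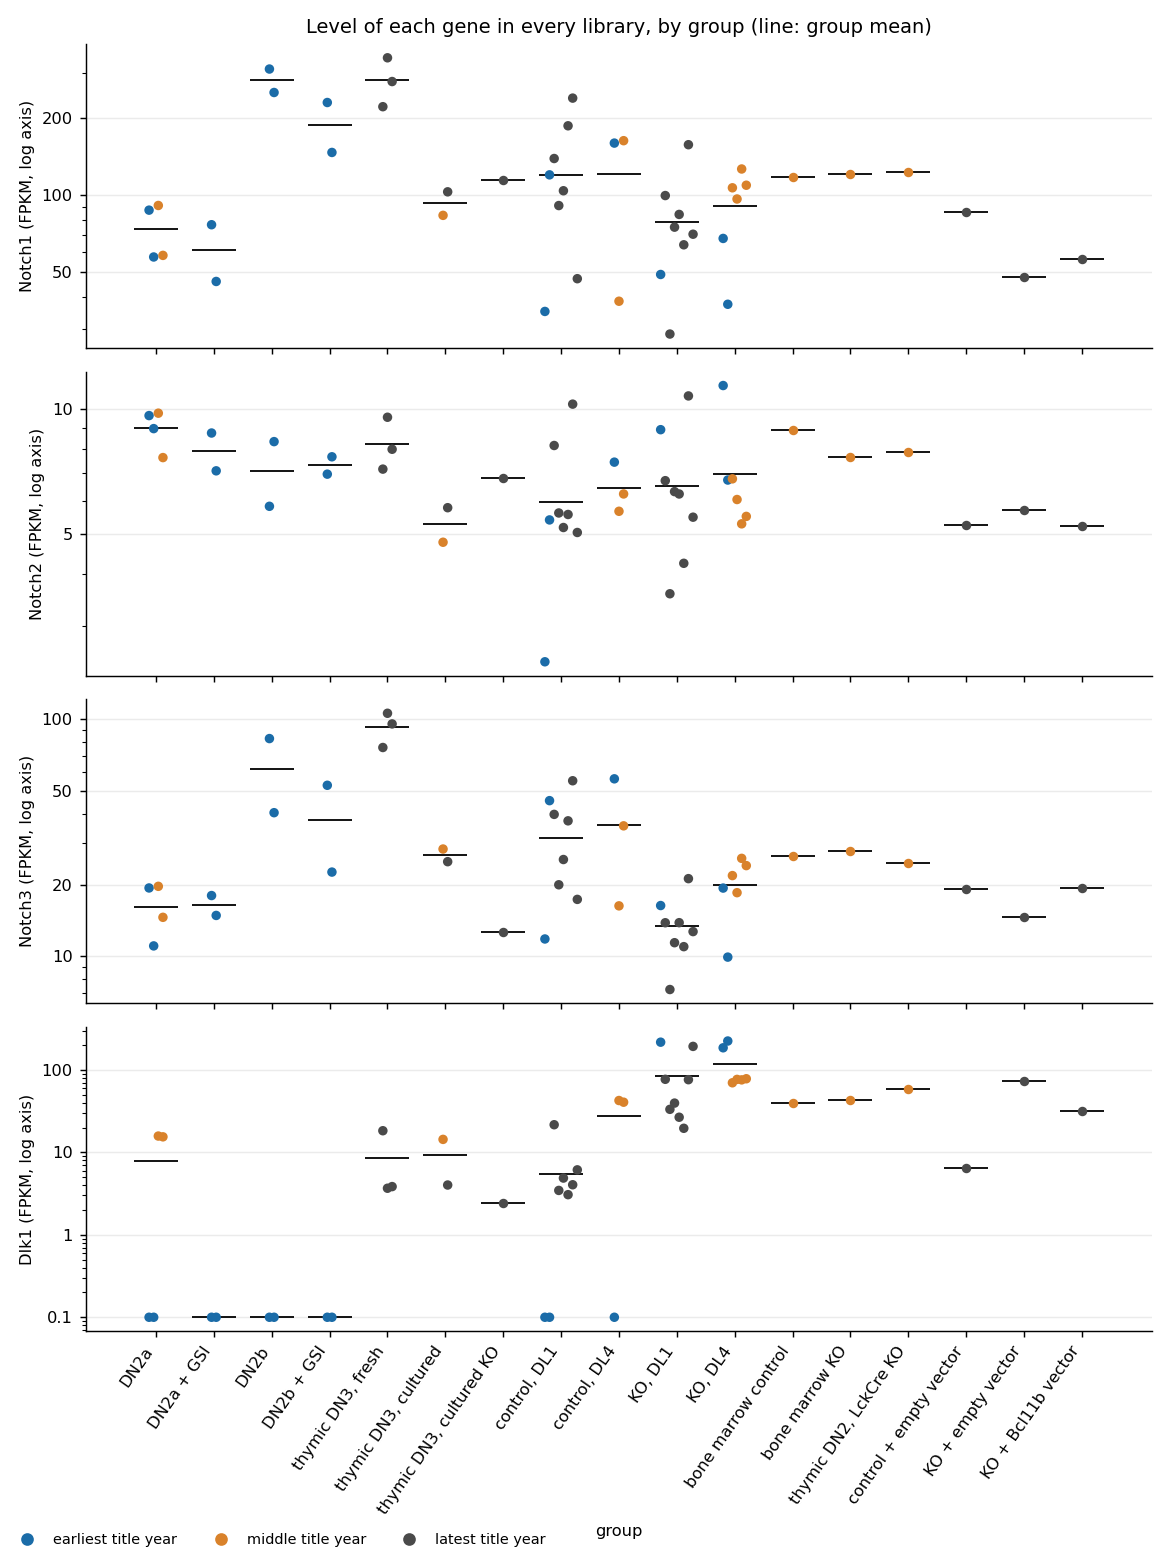
FPKM on a log axis of Notch1, Notch2, Notch3 and Dlk1 in each of the 47 libraries by group, with points for libraries, coloured by title year, and lines for group means. Notch1 and Notch3 are highest in DN2b and fresh DN3, Notch2 stays between 2.45 and 11.4 FPKM, and Dlk1 runs from the floor of 0.1 to 224 FPKM.

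The make-up of the receptor pool followed these levels. Of the summed FPKM of the 3 receptors, Notch1 made up 75.8% on average over 47 libraries (63.6% to 85.5%), Notch3 18.4% (9.43% to 27.0%) and Notch2 5.76% (1.46% to 12.5%). Notch2 made up 9.37% on average in DN2a but 2.12% in DN2b and 2.18% in fresh DN3, where the other receptors were high. Notch3 made up a median of 15.7% (11.2% to 22.1%) in fetal liver knockouts and 21.2% (16.3% to 27.0%) in controls. The ratio of Notch1 to Notch3 had a median of 5.05 (2.99 to 7.40) in knockouts and 3.50 (2.36 to 5.00) in controls, and was highest in the cultured DN3 knockout at 9.06. These shares are a description of RNA levels and say nothing of receptor protein.

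**Figure D2:**
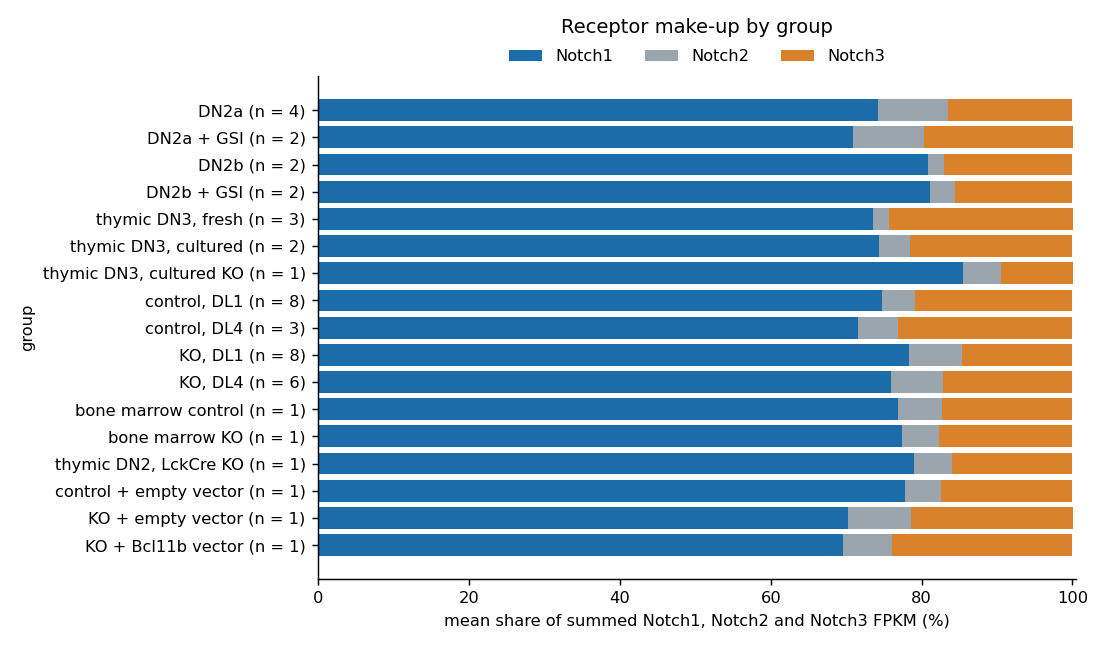
Share, in percent, of Notch1, Notch2 and Notch3 in their summed FPKM, as the mean of each group's libraries. Notch1 is the larger part in every group, and the Notch2 share is 9.37% in DN2a and 2.12% in DN2b.

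Notch1 and Notch3 were lower in untreated DN2a than in DN2b cells, the normal step across which Bcl11b turns on, and Notch2 was not called. This comparison uses no library of the knockout comparison. DN2b libraries were of day 8.5 and the earliest title year. DN2a replicates 3 and 4 were of days 8.5 and 4.5 and the middle year, and replicates 1 and 2, of the earliest year, name no day. Stage is thus partly mixed with day and title year. Notch1 was 87.3, 57.3, 91.1 and 58.1 FPKM in the DN2a libraries and 311 and 252 FPKM in the DN2b libraries. Every DN2b library lay above every DN2a library, and the mean was 3.83-fold higher in DN2b. How many of all genes separate in this way was not counted, here or for Notch3 below. An unadjusted limma p under 0.05 was reached by 33.1% of the genes tested. On the log2(FPKM + 1) scale, used for every difference below, Notch1 differed by -1.95 (SE 0.25, limma, Benjamini-Hochberg adjusted p = 0.0104). Calls are genes with an adjusted p under 0.05, and 13.5% of 13364 genes tested were called in this comparison.

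Notch3 was 19.4, 11.1, 19.7 and 14.6 FPKM in DN2a and 82.9 and 40.4 FPKM in DN2b. The groups did not overlap, the mean was 3.80-fold higher in DN2b, and the difference was -1.81 (SE 0.34, limma adjusted p = 0.0229). Notch2 was 9.65, 8.97, 9.78 and 7.64 FPKM in DN2a and 5.82 and 8.35 FPKM in DN2b. The groups overlapped and the difference was 0.32 (SE 0.21, 95% interval -0.17 to 0.81, limma adjusted p = 0.32). Neither call held without DN2b replicate 1, the library titled DN3, where Notch1 differed by -1.80 (limma adjusted p = 0.0887) and Notch3 by -1.30 (limma adjusted p = 0.138). The Notch3 call was also lost without DN2a replicate 4, the day 4.5 library (limma adjusted p = 0.0694).

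Markers of other cells moved with the same step, and their part in these differences was not tested. Erythroid genes (5 of 7 in the table) summed to between 994 and 1350 FPKM in DN2a and 42.2 to 58.1 FPKM in DN2b. Of these 5 genes, 3 had a median under 1 FPKM in DN2a and 2 in DN2b. Myeloid genes (6 of 6) summed to between 49.5 and 66.8 FPKM against 8.64 to 19.2 FPKM. In bulk RNA, fewer cells of a type and less RNA per cell cannot be told apart.

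Other genes of the Notch pathway were read in the same fit, from lists of ligands, sugar-transferring enzymes, proteases, nuclear partners, turnover factors and targets. Of 55 tested, 5 were lower in DN2a and 0 higher, with a median difference of -0.13 against -0.07 for all genes. Of all 13364 genes, 1234 were lower and 565 higher, so the share of lower calls was near that of all genes and is no result about the pathway. The turnover genes Dtx3 (-2.21) and Dtx3l (-1.07), of the Deltex family of ubiquitin ligases, were lower. Among targets, Dtx1 (-2.18), the pre-T-cell receptor gene Ptcra (-3.09) and Cd3e (-5.27), a T-cell receptor chain, were lower. No ligand, sugar-transferring enzyme, protease or nuclear partner was called. Of the ligand genes, 5 of 7 were in the table, and Dll1 had the highest median, 2.35 FPKM over 47 libraries, followed by Jag2 at 0.965 FPKM.

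No receptor was called between fresh thymic DN3 and DN2b cells. Notch1 was 222, 344 and 278 FPKM in the fresh DN3 libraries, and the difference from DN2b was -0.02 (SE 0.29, 95% interval -0.68 to 0.65, limma adjusted p = 0.992). The ranges of Notch1 overlapped. Notch3 was 76.0, 106 and 95.6 FPKM, and its difference of 0.65 (SE 0.33, 95% interval -0.10 to 1.41) was not called (limma adjusted p = 0.505). Notch2 was 7.16, 9.56 and 7.999 FPKM and differed by 0.20 (SE 0.27, limma adjusted p = 0.848). Calls made up 0.245% of 13495 genes here, and stage, source and title year cannot be told apart in it.

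Between cultured and fresh thymic DN3 cells, none of the 3 receptors passed the test over all genes. Each was lower in every cultured control than in every fresh library. How many of all genes separate in this way was not counted, so nothing is read from it. Notch1 was 83.3 and 103 FPKM in the cultured controls, below the fresh libraries, with a difference of -1.57 (SE 0.30, limma adjusted p = 0.0858). Notch3 was 28.4 and 25.1 FPKM, with a difference of -1.74 (SE 0.25, limma adjusted p = 0.0553). Notch2 was 4.77 and 5.78 FPKM, with a difference of -0.55 (SE 0.27, limma adjusted p = 0.364). Calls made up 0.0832% of 13215 genes. Notch3 was called without fresh replicate 1 (-1.88, limma adjusted p = 0.0337) or without cultured replicate 1 (-1.83, limma adjusted p = 0.0416). Of 51 pathway genes tested 0 were called by limma, and the median difference was -0.49 against -0.21 for all genes. Stromal feeder markers (14 of 14) summed to between 29.7 and 44.7 FPKM in fresh and 56.2 to 90.1 FPKM in cultured libraries, and their part was not tested.

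The single cultured DN3 library deleted for Bcl11b had 114 FPKM of Notch1, above both cultured controls, and 12.6 FPKM of Notch3, below both. Its Notch2 level was 6.82 FPKM and its Dlk1 level 2.42 FPKM. There is no replicate of this library and no test.

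GSI blocks the protease that releases the Notch intracellular domain, so that its effect on the receptor genes could be set beside normal levels. Notch1 was lower with GSI in each of the 4 date-matched pairs, going from 311 to 230.1 and from 252 to 147 FPKM in DN2b and from 87.3 to 76.6 and from 57.3 to 46.0 FPKM in DN2a. Ranges of treated and untreated cells overlapped within DN2a but not within DN2b. The share of all genes that separate, or keep 1 direction over the pairs, was not counted, here or for Notch3 below. The fitted difference was -0.41 (SE 0.22, 95% interval -0.89 to 0.07, limma adjusted p = 0.999), and with the pairs as a replicate block it was -0.43 (SE 0.11, limma adjusted p = 0.406). No gene was called over 13013 tested (0% of genes by limma, 426 with an unadjusted p under 0.05), so the lower Notch1 values in every pair carry no call.

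Notch3 was lower with GSI in 3 of the 4 pairs. It went from 82.9 to 52.7 and from 40.4 to 22.7 FPKM in DN2b, and from 19.4 to 18.04 and from 11.1 to 14.9 FPKM in DN2a. The difference was -0.28 (SE 0.30, 95% interval -0.96 to 0.39, limma adjusted p = 0.999). Notch2 went from 5.82 to 6.96 and from 8.35 to 7.67 FPKM in DN2b, and from 9.65 to 8.76 and from 8.97 to 7.09 FPKM in DN2a. Its difference was -0.07 (SE 0.14, limma adjusted p = 0.999), and treated and untreated values overlapped. Dlk1 was at the floor in all 8 paired libraries, and no change could be measured. Of 54 pathway genes 0 were called. The targets Hes1 (-0.33), Nrarp (-0.43) and Dtx1 (-1.19) had negative differences without a call.

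**Figure D3:**
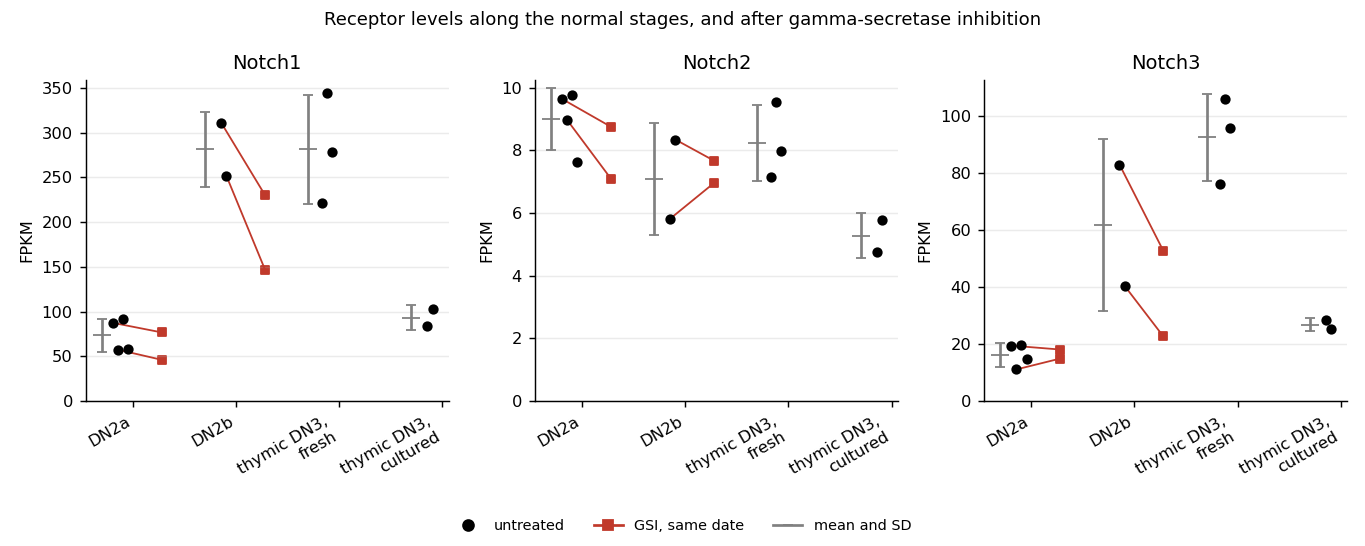
FPKM of Notch1, Notch2 and Notch3 in untreated and GSI-treated DN2a and DN2b libraries and in fresh and cultured thymic DN3 libraries, with red lines joining date-matched pairs and grey bars for the mean ± SD of the untreated libraries. Untreated DN2b libraries lie above all DN2a libraries for Notch1 and Notch3, and each Notch1 pair is lower with GSI.

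Dlk1 ranged from the floor to 224 FPKM, the widest span of the members, with a mean of 39.4 FPKM (percentile 85.6). Fetal liver knockouts stood highest, at 118.5 ± 68.2 FPKM on DL4 (SD, n = 6) and 85.3 ± 77.2 FPKM on DL1 (SD, n = 8), with overlapping ranges. The single knockout with empty vector had 72.4 FPKM and the LckCre thymic DN2 knockout 59.5 FPKM, the first inside both ranges and the second inside the DL1 range only. The bone marrow libraries had 43.3 FPKM (labelled knockout) and 39.7 FPKM (control). Bcl11b was 45.04 and 44.9 FPKM in these single libraries, and its part in their Dlk1 levels was not tested. Controls averaged 27.8 ± 24.0 FPKM on DL4 (SD, n = 3) and 5.43 ± 6.89 FPKM on DL1 (SD, n = 8). Fresh DN3 libraries had 18.3, 3.67 and 3.85 FPKM and cultured DN3 controls 14.4 and 4.02 FPKM. DN2b, and GSI-treated DN2a and DN2b, were at the floor in every library.

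Dlk1 in cells with intact Bcl11b followed the year in the titles. All 11 such libraries of the earliest year were at the floor, whatever their stage, stroma or GSI treatment. The 6 of the middle year had a lowest value of 14.4, a median of 27.8 and a highest of 42.6 FPKM, and the 11 of the latest had 3.07, 4.05 and 21.6 FPKM. The earliest year did not overlap with either later year, and the later years overlapped. Untreated DN2a cells show it within 1 group, at 0.1 and 0.1 FPKM in the earliest and 15.8 and 15.4 FPKM in the middle year. No difference from DN2b is given, since Dlk1 was at the floor in both DN2b libraries and passed the filter on low values only through the later DN2a libraries.

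The same split was counted over all genes, by a rule set on the values of Dlk1, so its place in the count is no test. Of 17754 genes, 29 were at the floor in all 11 intact libraries of the earliest year, 4 of these were above it in all intact libraries of the later years, and 1, Dlk1, reached 1 FPKM or more in all of those. No gene had the analogous pattern for the middle or for the latest year. In knockout libraries the earliest year was the highest, with 186, 217 and 224 FPKM in the 3 of the earliest year, 43.3 to 78.2 FPKM in the 6 of the middle year (median 72.9) and 2.42 to 193 FPKM in the 10 of the latest (median 36.5). Every knockout library of the earliest year thus lay above every one of the middle year, and the spread was widest in the latest. The medians of intact and knockout libraries were both lower in the latest than in the middle year. Tnni1, the gene nearest to Dlk1 in pattern, averaged 1.09, 24.7 and 2.91 FPKM in intact libraries of the earliest, middle and latest year. Its knockout means were 175, 87.3 and 91.1 FPKM in that order. The table was adjusted with ComBat, with batches not given in the sources used here, and the part of that step in the floor values was not tested.

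**Figure D4:**
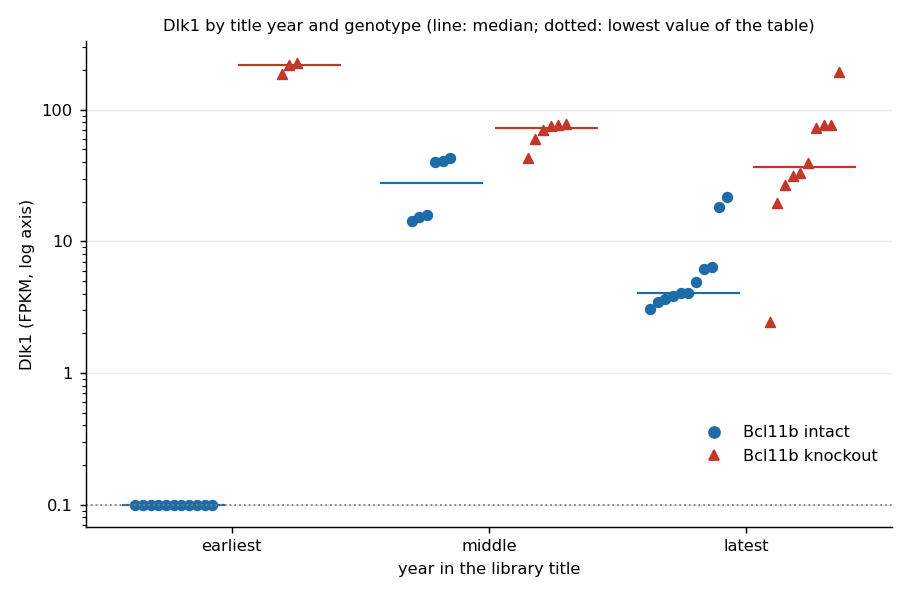
Dlk1 FPKM on a log axis in each library by the year in its title, for Bcl11b-intact and knockout libraries, with lines for medians. All 11 intact libraries of the earliest year sit at the floor of 0.1 FPKM, and the 3 knockout libraries of that year lie between 186 and 224 FPKM.

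In the fetal liver cultures Dlk1 was higher in knockout libraries, Notch3 and in part Notch1 lower, and Notch2 alike in range. As these values chose the members, they are given without a test. Over all genes, 16.9% of 12678 tested were called in this comparison, and nothing is read from the members against that share. Dlk1 had a lowest value of 19.6, a median of 76.5 and a highest of 224 FPKM in 14 knockouts, and 0.1, 4.05 and 42.6 FPKM in 11 controls. Of the knockouts 10 lay above every control, and 8 controls lay below every knockout. The share of all genes that separate, or agree over pairs, to this extent was not counted, here or for the receptors below. The fitted difference was 3.57 (SE 0.53). Dlk1 was higher in knockout in 9 of 9 date-matched pairs, with a median of 2.94 and a range of 0.84 to 7.68. Of these pairs, 3 are read from title dates and days as the same cultures on different days. Within years the difference was 7.59 in the earliest, 0.84 in the middle and 2.94 in the latest, the first of these against controls at the floor.

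Notch3 had 7.24, 15.1 and 25.9 FPKM (lowest, median, highest) in knockouts and 11.8, 35.5 and 56.1 FPKM in controls. Above every knockout lay 6 controls, and 4 knockouts lay below every control. Notch3 was lower in knockout in 7 of 9 pairs, by a median of -1.10 (-2.39 to 0.44). Within years the difference was -1.21, -0.10 and -1.20 in the same order, so that it was small in the middle year, which held 4 knockouts and 2 controls, all on DL4.

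Notch1 had 28.6, 79.5 and 157 FPKM in knockouts and 35.1, 120.0 and 239 FPKM in controls. Only 4 controls lay above every knockout and 7 lay inside the knockout range. The fitted difference was -0.44 (SE 0.30), lower in 6 of 9 pairs with a median of -0.57 (-2.06 to 1.31), and it was -1.02, 0.45 and -0.66 in the earliest, middle and latest year. Notch2 had 3.58, 6.28 and 11.4 FPKM in knockouts and 2.45, 5.61 and 10.3 FPKM in controls, with 10 of 11 controls inside the knockout range. Its difference was 0.10 (SE 0.17), higher in 6 of 9 pairs.

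In 4 of the pairs the titles name the same stage for both genotypes. In the pair titled DN2b on both sides, Dlk1 was 76.2 FPKM in knockout and 4.05 FPKM in control, Notch3 21.3 and 55.03 FPKM, and Notch1 157 and 239 FPKM. The 3 pairs titled DN2 are read from title dates and days as 1 knockout and 1 control culture over time. In them Dlk1 was higher and Notch1 and Notch3 lower in knockout at each harvest.

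**Figure D5:**
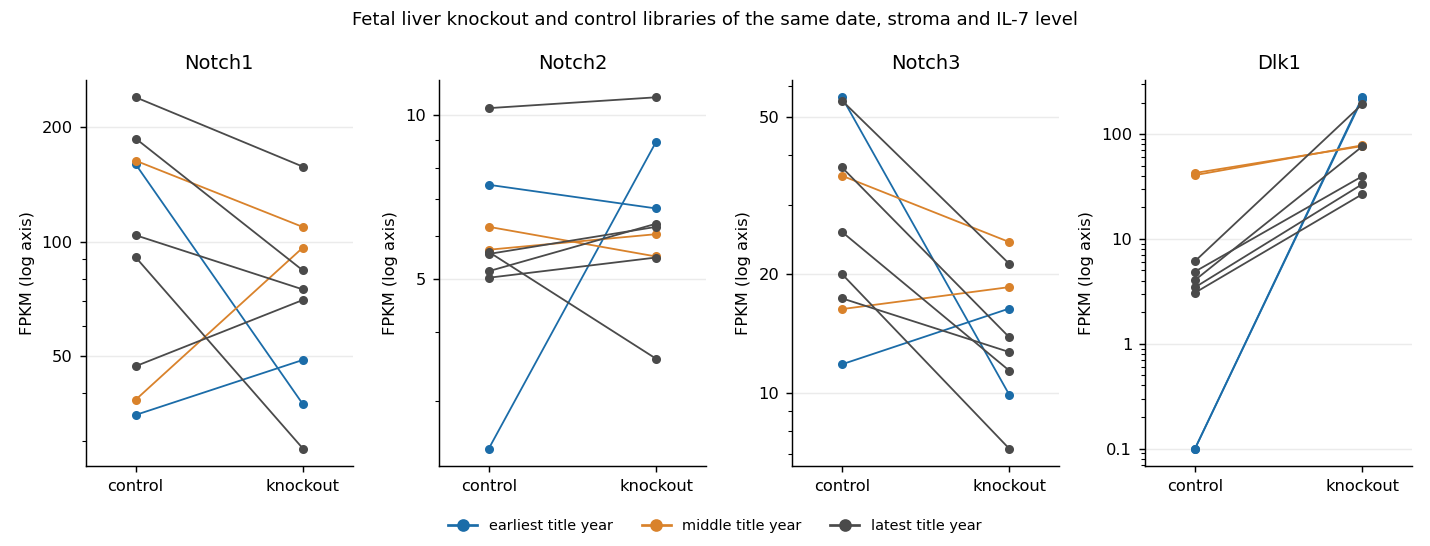
FPKM on a log axis of each member in 9 pairs of fetal liver control and knockout libraries that share title date, stroma and IL-7 level, with a line for each pair, coloured by title year. Dlk1 is higher in 9 of 9 pairs, Notch3 is lower in 7 and Notch1 in 6.

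Markers of other cells in the same libraries were as follows. Hepatoblast markers (3 of 8 in the table) summed to between 2.28 and 5.44 FPKM in knockouts and 0.931 to 3.23 FPKM in controls, with medians of 3.86 and 1.96 FPKM. The highest knockout values were 2.88 FPKM for Apoa2, 3.28 FPKM for Ahsg and 0.652 FPKM for Afp. Stromal feeder markers (14 of 14) summed to between 46.1 and 156 FPKM in knockouts and 32.0 to 148 FPKM in controls, with medians of 68.9 and 86.0 FPKM. Pdgfrb was the highest of them, with a median of 20.6 FPKM in knockouts, and 3 of the 14, Dcn, Postn and Cdh11, had medians under 1 FPKM. Over the 14 knockouts, which share title years, Dlk1 and that sum had a Pearson correlation of -0.37. Mast and megakaryocyte markers (7 of 7) summed to between 260 and 914 FPKM in knockouts and 78.2 to 337 FPKM in controls. Of these 7 genes, 5 had a median under 1 FPKM in knockouts and 5 in controls, so few genes carry the sum. Erythroid markers summed to between 138 and 870 FPKM against 30.2 to 403 FPKM. Early T-cell markers summed to between 1050 and 2220 FPKM against 2060 to 3380 FPKM. The part of each of these lists in the members' differences was not tested.

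Other pathway genes were tested in the knockout comparison. Of 52, 10 were higher and 3 lower, with a median of 0.09 against 0.04 for all genes, of which 16.9% were called (1242 higher and 900 lower of 12678). Among sugar-transferring enzymes, Poglut1 (0.39, limma adjusted p = 0.021), which adds O-glucose to Notch, was higher. Among proteases, Furin (0.59), which cuts the receptor during transport, and the gamma-secretase subunit gene Psen2 (0.53) were higher. Nuclear partners had 3 of 13 higher, the Mastermind-like coactivators Maml2 (0.59) and Maml3 (0.42) and the acetyltransferase Kat2a (0.37). Of 10 turnover genes, Dtx4 (-0.49) was lower. Targets split, with 4 of 12 higher, led by the feedback inhibitor Nrarp (1.94) and by Gata3 (0.78), and 2 lower, Cd3e (-3.84) and Ptcra (-2.22).

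Fetal and imprinted genes were read beside Dlk1. Of 13 listed, 8 were in the table and 6 were tested, and Hmga2 (1.58), Igf2 (0.85) and Lin28b (0.57) were higher in knockout. Igf2bp1 (0.48), Igf2bp3 (0.21) and H19 (-0.29), the most abundant of the list, were not called. Over all genes 16.9% of 12678 were called, 1242 of them higher. The list was chosen with earlier results known, so nothing is read from its count. Meg3, the imprinted neighbour of Dlk1, stood at 0.76, 1.10 and 5.75 FPKM (lowest, median, highest) in knockouts and 0.1, 0.357 and 1.2 FPKM in controls. Rian, a further RNA gene of that cluster, stood at 0.1, 0.601 and 2.06 FPKM against 0.1, 0.224 and 0.581 FPKM. Both medians were far below that of Dlk1. In fresh DN3 against DN2b, where 0.245% of 13495 genes were called, Lin28b (-2.61) and Igf2bp1 (-2.52) were lower. Dlk1 is not compared there, because it was at the floor in both DN2b libraries, which are of the earliest title year, and passed the filter only through the fresh DN3 libraries.

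The IL-7 level moved with the knockout difference of Dlk1. Reduced IL-7 knockouts had 75.8, 201 and 224 FPKM (lowest, median, highest, n = 4) and standard ones 19.6, 73.0 and 193 FPKM (n = 10). The 3 controls with reduced IL-7 were all at the floor, and the 8 with standard IL-7 had 3.07, 5.51 and 42.6 FPKM. Controls therefore did not overlap between IL-7 levels, while knockouts did. The share of all genes whose controls separate in this way was not counted. As the knockout difference chose Dlk1, its dependence on IL-7 is a description with no test. The fitted knockout difference was larger with reduced IL-7 by 4.42 (SE 0.83), against controls at the floor, and over all genes this term was called for 0.701% of 14271. With each library left out in turn the value ran from 3.87 to 4.83. All 3 reduced IL-7 controls and 3 of the 4 reduced IL-7 knockouts carry titles of the earliest year, and no standard IL-7 library of this comparison does. IL-7 level and title year thus cannot be told apart in these controls. The only knockouts that share a date and differ in IL-7, on DL4 in the middle year, had 75.8 FPKM with reduced and 76.8 FPKM with standard IL-7.

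For the receptors the same term was -0.19 (SE 0.69) for Notch1, 0.67 (SE 0.36) for Notch2 and -0.09 (SE 0.52) for Notch3, again as a description. Averaged over genotypes, reduced IL-7 differed from standard by -0.41 (SE 0.34) for Notch1, 0.00 (SE 0.19) for Notch2, 0.06 (SE 0.26) for Notch3 and -0.95 (SE 0.61, limma adjusted p = 0.784) for Dlk1. None of these was called, where 0.0301% of 13279 genes were.

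Stroma with DL4 in place of DL1 gave no called difference in any member. Notch1 differed by 0.25 (SE 0.33), Notch2 by 0.12 (SE 0.18) and Notch3 by 0.38 (SE 0.25), each with limma adjusted p = 0.999. Dlk1 differed by 1.34 (SE 0.57, 95% interval 0.16 to 2.52, limma adjusted p = 0.744), and 0.286% of 12924 genes were called. Outside the earliest year, all DL4 libraries here were of the middle year and all DL1 libraries of the latest. Stroma and title year cannot be told apart there. The Dlk1 difference was -0.04 (SE 0.27) within the earliest year, and 1.31 (SE 1.11) with title year in place of IL-7. In pairs of the earliest year that shared a date, Notch1 was higher on DL4, at 67.7 against 48.95 FPKM in knockouts and 159.7 against 120.0 FPKM in controls. Notch3 was also higher there, at 19.4 against 16.4 FPKM and 56.1 against 45.4 FPKM. Dlk1 had 186 against 217 FPKM in the knockouts and stood at the floor in both controls. The knockout by stroma term was called for no gene (0% of 14271 by limma, 338 with an unadjusted p under 0.05), and that of Dlk1 was -0.52 (SE 1.16).

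Culture time on DL1 could be followed from days 9 to 10 to day 12. Notch1 differed by 0.46 (SE 0.35, limma adjusted p = 0.441), Notch2 by 0.27 (SE 0.20, adjusted p = 0.437), Notch3 by 0.40 (SE 0.24, adjusted p = 0.346) and Dlk1 by 0.19 (SE 0.48, adjusted p = 0.831). No gene was called (0% of 12710 by limma, 2650 with an unadjusted p under 0.05). Some libraries are read, from title dates and days, as repeated harvests of 1 culture. In these series Notch1 and Notch3 were higher at each later harvest. The share of all genes with this order was not counted, so nothing is read from it. Notch1 went from 28.6 to 74.9 to 84.0 FPKM on days 9, 10 and 12 in 1 knockout culture, from 63.9 to 157 FPKM on days 9 and 12 in another, and from 91.0 to 104 to 187 FPKM in a control culture. Notch3 went from 7.24 to 11.4 to 13.9 FPKM, from 10.98 to 21.3 FPKM and from 20.0 to 25.6 to 37.3 FPKM. As these libraries are taken to share a culture, each series is 1 replicate. The knockout series of days 9 and 12 alone is titled DN2 on day 9 and DN2b on day 12, so day and named stage change together in it.

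Dlk1 had no common order in those cultures. It was 33.3, 39.6 and 26.7 FPKM in the first knockout culture, 19.6 and 76.2 FPKM in the other, and 3.46, 4.88 and 3.07 FPKM in the control. The knockout by day term of Dlk1 was 1.62 (SE 0.91), with 0% of 13674 genes called by limma and 312 at an unadjusted p under 0.05. Knockout levels of Dlk1 ran from 19.6 to 77.0 FPKM on days 9 to 10 and from 26.7 to 193 FPKM on day 12, and control levels from 3.46 to 21.6 FPKM and from 3.07 to 6.14 FPKM.

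Adding Bcl11b back could be read in single libraries only. Bcl11b was 105 FPKM in the knockout with the Bcl11b vector. Dlk1 was 31.5 FPKM there, 72.4 FPKM in the knockout with empty vector and 6.42 FPKM in the control with empty vector. The level with the Bcl11b vector was thus between the others, at a ratio of 0.435 to the empty vector, and inside the range of the DL1 knockouts. Notch1 was 56.4 against 47.9 FPKM, Notch3 19.4 against 14.7 FPKM and Notch2 5.22 against 5.70 FPKM, in the Bcl11b and the empty vector library. No replicate exists for any of these.

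The members' patterns over the 47 libraries were compared with those of all genes whose mean was at least 5 FPKM, by the Pearson correlation of log2(FPKM + 1). These libraries share groups, title years and the ComBat step, so the values describe likeness only. Notch1 and Notch3 followed each other with a correlation of 0.876 (Spearman 0.861), and with 0.833 over the 25 fetal liver libraries. The genes most like Notch1 were Bcl7a (0.884), Setd1b (0.876), E130307A14Rik (0.859), Wdr91 (0.853) and Asxl1 (0.847). Those most like Notch3 were Zfp956 and Znf512b (0.890 each), Bcl7a (0.879), Tmem131 (0.871) and Tsc2 (0.859). Bcl7a was thus among the 5 nearest genes of both.

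Genes near Notch2 included Mkl2 (0.910), Vps13b (0.842), Dip2b (0.835) and Ndst1 (0.826), and its correlation with Notch1 was 0.405. Dlk1 was nearest to Tnni1 (0.923), Polm (0.890), Col9a3 (0.881), Lag3 (0.869) and Myo1e (0.844). Its correlation with Notch1 was -0.31 and with Notch3 -0.34. Tnni1 was at the floor in 9 of the 11 intact libraries of the earliest year.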

How the data were processed

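RNA was poly(A)-selected and random-primed, with no strand mark listed, per the labels' protocols, so that antisense reads cannot be told from a gene's own. The authors deposited 1 table of FPKM values, named as merged and ComBat-adjusted, and the genome was mm9, per the submitters' processing notes. Aligner, quantifier and ComBat batches were not given in the sources used here. A further 16 columns matched no sample and were not used. Depth is unknown from FPKM, and totals ran from 581205 to 1005744 FPKM.

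Groups came from titles and characteristics. Linear models came from limma 3.58.1 (R 4.3.3) on log2(FPKM + 1), with a mean-variance trend and Benjamini-Hochberg adjustment over all genes that reached 1 FPKM in a number of fitted libraries no lower than the size of the smaller group. All 4 members passed this filter in each fit, except Dlk1 in the GSI fit. Calls have an adjusted p under 0.05. Covariates were stroma and IL-7 in the knockout fit and the stage in the GSI fit, with all 6 untreated libraries. The scripts were tested on simulated data. The members and lists were chosen with earlier results of these data known. Named are the 4 members, up to 4 called genes per pathway list with the largest differences or the 2 most abundant where the text needs them, fetal and imprinted genes, and for each member the 5 most correlated genes with a mean of at least 5 FPKM, 1 of which is not reported here. No separate cultures or animals are stated for every library, so p-values measure only the spread between these libraries, which may be technical. The knockout and GSI pairs share title date, stroma and IL-7 in the labels. Deviations from group means correlated between -0.054 and 0.502 within the 9 knockout pairs and between 0.612 and 0.647 within the 4 GSI pairs. Alternatives were robust variances, quantile normalization, a pseudocount of 0.1, no filter, pair blocks, subsets by year or IL-7, title year as covariate, and each library left out. Promoters came from RefSeq on GRCm38.p6, a later build than the authors' mm9, and no value was joined to them by position.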

Additional observations from a re-analysis of the deposited data

Results flagged for a closer look

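The excess of Dlk1 in knockouts was larger with reduced IL-7, by 4.42 on the log2(FPKM + 1) scale in limma's interaction term (n = 4 and 10 knockouts, 3 and 8 controls). All 3 reduced IL-7 controls were at the floor, IL-7 level and title year largely coincide, and the knockout difference chose Dlk1, so the value is a description and no p is given. In the group of 6 DL4 knockouts, replicate 1 stood apart from the others in Notch2, at 11.4 FPKM, and among the 8 DL1 controls replicate 3 stood apart in Dlk1, at 21.6 FPKM. Gaps of this kind were sought in 16 combinations of gene and group of 4 to 10 libraries, and chance gives about 1 in 20.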

How the results depend on the processing

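Of 954 alternative values of 43 member results, 935 were counted as unchanged and 19 were not. In the knockout description, unchanged meant a move of less than the spread between replicates, and elsewhere the same side of the threshold. A change of sign with no call in either fit was counted as unchanged. For reduced against standard IL-7, Notch2 kept its sign in 17 of 30 alternatives. Notch1 went there from -0.41 to 0.64 with title year added. In the knockout description, Notch1 was 0.45 and Notch3 -0.10 in the middle title year, Notch2 0.65 in the earliest, and Dlk1 7.59 in the earliest and 0.84 in the middle. Genes called in knockout numbered 1282 with 9 pairs as a replicate block, 858 with 7 culture pairs, 1396 with standard IL-7 alone, and 475, 615 and 778 within the earliest, middle and latest year. With the block, Notch1, Notch2, Notch3 and Dlk1 differed by -0.46, 0.15, -0.88 and 3.81.

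Between DN2a and DN2b, Notch1 and Notch3 lost their calls without the library titled DN3 (-1.80 and -1.30) and in the earliest year alone (-1.97 and -1.91). They kept them in that year with replicate number as a block (limma adjusted p = 0.0135 and 0.018). Libraries of equal number share title dates only in part, and this block holds 2 libraries of each stage. Genes called numbered 1065 with a pseudocount of 0.1, 624 with the block, 60 without that library and 68 in that year. Leaving out each library gave -2.10 to -1.80 for Notch1, -2.32 to -1.30 for Notch3 and 60 to 1406 genes. In cultured against fresh DN3, robust variances called Notch1 (-1.57) and Notch3 (-1.74). Genes called there were 105 with robust variances, 4 with the smaller pseudocount, 1 without a filter and 3 after quantile normalization. Leaving out each library gave 1 to 115 genes and -1.88 to -1.64 for Notch3. Fresh DN3 against DN2b gave 83 genes with robust variances, 323 without the library titled DN3, 6 to 323 with each library left out, and 2.11 to 3.14 for Dlk1, which was at the floor in DN2b.

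For knockout by IL-7, 59 genes were called after quantile normalization, 217 with the title year added and 40 to 202 with each library left out, where the term of Dlk1 ran from 3.87 to 4.83. Stroma gave 130 genes with standard IL-7, 2 with title year in place of IL-7, 0 in the earliest year and 18 to 56 with each library left out. IL-7 gave 15 without a filter, 0 with the title year and 0 to 83 with each library left out. Day gave 2 after quantile normalization and 0 to 51 with each library left out, knockout by day 0 to 2, and knockout by stroma 0 to 4. The cause of these shifts was not tested. Subsets and left-out libraries have fewer samples by construction. Depth is unknown, and values at the floor carry no fold. The range of Dlk1 in fresh DN3 against DN2b is therefore no result, since both DN2b libraries were at the floor. Those libraries were also of the earliest title year, and the fresh DN3 libraries were of the latest. Group sizes of 2 to 4 limit the stage, GSI and DN3 tests.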
